A study of Homo sapiens with 6 samples.

Results

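Catenins and cadherins build the adherens junction, the contact that holds epithelial cells together. The 10 genes described here were chosen by name for that role: the catenin genes CTNNB1, JUP, CTNNA1, CTNNA2, CTNND1 and CTNNAL1, the cadherin genes CDH1, CDH3 and CDH17, and VCL, the gene of vinculin. Of these 10, 9 had a transcript cluster (the set of probes that measures 1 gene on the array) that the platform's annotation paired with no other gene, among 18417 genes measured in that way. CTNND1, the gene of p120-catenin, shares its cluster with a read-through transcript and is not analysed here. Each of the 9 had 1 such cluster, so no choice between clusters was needed.

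Cells of AGS, a human gastric adenocarcinoma line, were transfected with siRNA against CTNNB1 or with a non-targeting control siRNA, and RNA was taken 48 hours later. Each group held 3 arrays (Affymetrix Human Gene 1.0 ST), called biological replicates in the titles. Separate passages or days are not stated, so p-values reflect only the variation among these 6 samples. The sources used here give neither the siRNA sequences nor how many siRNAs the reagent holds. AGS cells are known from other work to carry a stabilising mutation in CTNNB1 and to lack functional E-cadherin protein, so the CDH1 transcript does not stand for E-cadherin at the membrane. Values are log2 expression, on which a difference of 1 is a doubling, and differences are CTNNB1 siRNA minus control siRNA.

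In a classical cadherin such as E-cadherin, the outer part binds the same cadherin on a neighbouring cell, and the tail inside the cell binds beta-catenin or gamma-catenin. Alpha-catenin joins that complex to actin filaments and, under tension, opens to bind vinculin. Beta-catenin has a second role as the transcriptional partner of TCF and LEF factors in Wnt signalling, and gamma-catenin, its closest relative, also sits in desmosomes.

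The array medians lay between 5.38 and 5.46 log2 over 33297 transcript clusters. CTNNB1 siRNA replicate 1 stood apart, with Pearson correlations across clusters of 0.962 to 0.965 with the other arrays, against 0.983 to 0.988 among the remaining pairs. It held the largest deviation from its group's mean in 55.4% of the tested clusters and in 6 of the 9 catenin and cadherin genes. Control replicate 1 did so in 41.6% of clusters and likewise in 6 of the 9. All 6 epithelial markers (KRT8, KRT18, KRT19, EPCAM, CLDN4, CLDN7) lay above the dimmest 40% of clusters. All 5 endothelial markers, 5 of 6 fibroblast markers (all but COL1A1) and 2 of 4 measured immune markers (PTPRC and CD3E) were within the dimmest 40%. COL1A1, a collagen gene, was 7.12, 6.71 and 6.94 log2 on the CTNNB1 siRNA arrays and 6.40, 6.70 and 6.59 log2 on the control arrays. CD68, a lysosomal gene typical of macrophages, was 8.03, 8.74 and 8.85 log2 on the CTNNB1 siRNA arrays and 7.86, 8.07 and 8.09 log2 on the control arrays, a difference of 0.53 (SE 0.23, adjusted p = 0.816, limma). LYZ, the lysozyme gene, which gastric epithelium also makes, was 12.45 to 13.03 log2 on the CTNNB1 siRNA arrays and 12.99 to 13.16 log2 on the control arrays. In limma 0 of 6 epithelial, 6 fibroblast, 5 endothelial and 4 immune markers passed. At an unadjusted p under 0.05, 2, 0, 1 and 1 were higher and 0 lower (all clusters: 3.04% higher, 2.6% lower). The 2 epithelial genes were KRT19, with a difference of 0.96 (SE 0.36), and CLDN4, with 0.67 (SE 0.24). In the same order, the median differences were 0.50, 0.025, 0.060 and 0.042 log2, against -0.0052 over all genes. The mean log2 level of the epithelial markers was 11.45, 10.91 and 10.87 on CTNNB1 siRNA replicates 1 to 3 and 10.75, 10.58 and 10.56 on control replicates 1 to 3, and the part of these shifts in the results below was not tested.

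Among the 9 genes, the silenced gene had by far the largest difference. CTNNB1 was at 41.5% of control, and the other 8 lay between 83.9% (CTNNAL1) and 122% (CTNNA1), with 4 above and 4 below the control mean. In limma, 0 of the 9 passed an adjusted p of 0.05, where the background over all 19460 tested clusters was 0.00514%. At an unadjusted p under 0.05 the count was 1 of 9, CTNNB1, against 5.64% of all clusters. The median absolute difference of the other 8 was 0.13 log2, against 0.15 log2 over all tested clusters.

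**Figure D1:**
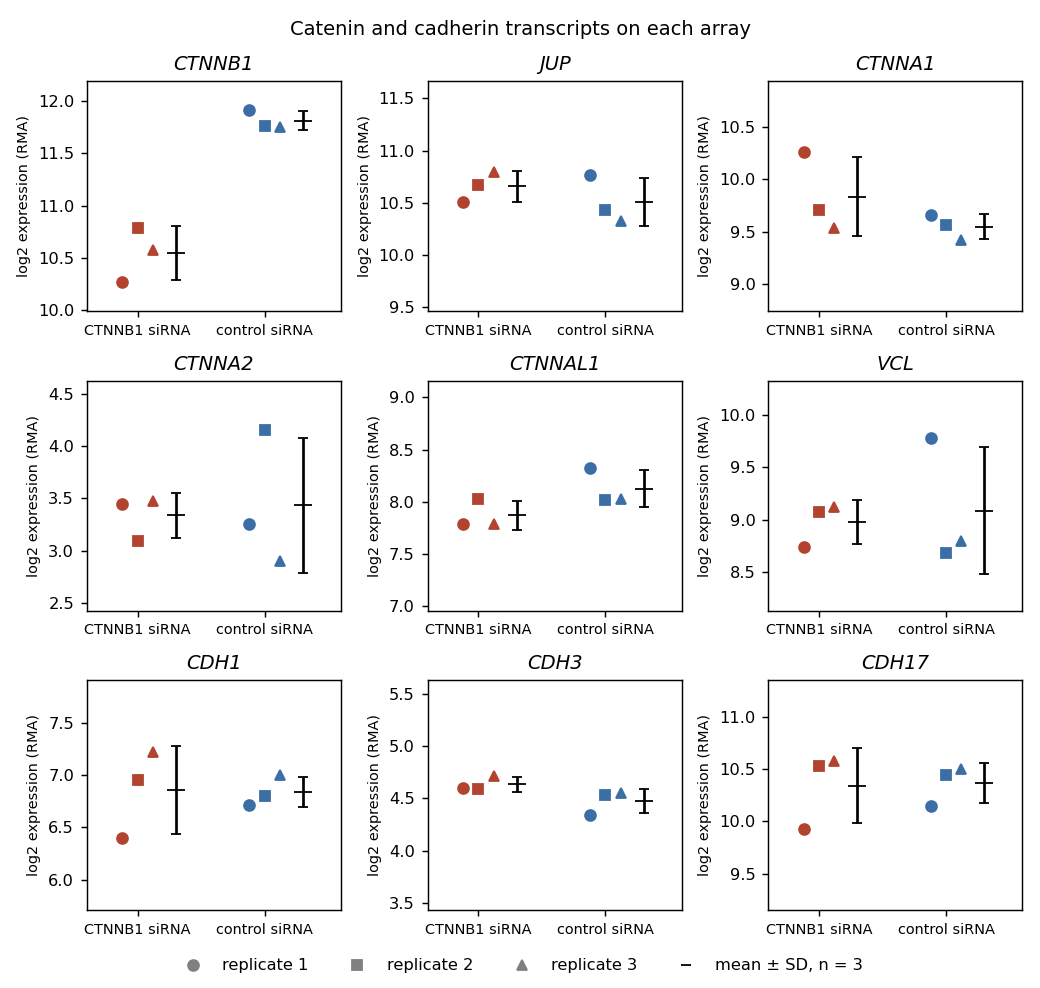
Log2 expression (RMA, vertical axes, each spanning 2.2 log2 units) of the 9 genes on every array, with CTNNB1 siRNA on the left and control siRNA on the right of each panel. Symbols mark the replicate number and the black bar the mean ± SD (n = 3); CTNNB1 is the gene with a wide gap between the groups, and replicate 1 of a group is often its most distant point, as for VCL in the control cells.

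CTNNB1 encodes beta-catenin. Its level was 10.27, 10.78 and 10.58 log2 on CTNNB1 siRNA replicates 1 to 3, against 11.92, 11.76 and 11.75 log2 on control replicates 1 to 3. Each CTNNB1 siRNA array lay below each control array, so the target matched the label on all 6. Because RNA came from whole cultures, fewer silenced cells and less transcript per cell cannot be told apart. Set against the control mean, the 3 CTNNB1 siRNA arrays kept 34.3%, 49.1% and 42.6% of the transcript. The log2 difference was -1.27 (SE 0.17, 95% interval -1.65 to -0.88), which is 41.5% of control with an interval of 31.8% to 54.2%. In limma its adjusted p was 0.232 over all clusters, so it did not pass. Only 3 of the 19460 tested clusters had a larger negative difference. A smaller p in limma was found for 4 clusters, none of them with a negative difference. With arrays weighted by their quality, limma gave CTNNB1 an adjusted p of 0.0219 and a difference of -1.12, the 1 setting among those tried in which a catenin or cadherin gene was called.

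JUP encodes gamma-catenin (plakoglobin), which can take the place of beta-catenin on cadherin tails. It was 10.51, 10.67 and 10.80 log2 on the CTNNB1 siRNA arrays and 10.77, 10.43 and 10.33 log2 on the control arrays. The groups overlapped, because control replicate 1 was nearly as high as the highest CTNNB1 siRNA array. The difference of 0.15 (SE 0.17, 95% interval -0.24 to 0.53) corresponds to 111% of control, with an interval of 84.9% to 144% (adjusted p = 0.850, limma). Without control replicate 1 the difference of JUP was 0.28, and without control replicate 3 it was 0.057.

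Alpha-catenin, from CTNNA1, is the link between the cadherin-catenin complex and actin. CTNNA1 was 10.26, 9.71 and 9.53 log2 on the CTNNB1 siRNA arrays and 9.66, 9.56 and 9.42 log2 on the control arrays. The high value belonged to CTNNB1 siRNA replicate 1, the most distant array, and the other arrays of that group lay within or just above the control range. The difference was 0.29 (SE 0.20, 95% interval -0.18 to 0.76, adjusted p = 0.816, limma) over all arrays, and 0.074 without that replicate.

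CTNNAL1 encodes alpha-catulin, a relative of alpha-catenin. Its level was 7.79, 8.03 and 7.79 log2 on the CTNNB1 siRNA arrays, against 8.33, 8.02 and 8.03 log2 on the control arrays. Replicates 1 and 3 of the CTNNB1 siRNA group lay below every control array, and replicate 2 lay among the controls. The difference of -0.25 (SE 0.15, 95% interval -0.61 to 0.10) was the most negative after CTNNB1 and did not pass (adjusted p = 0.816, limma). Without control replicate 1 the difference was -0.15.

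VCL encodes vinculin, an actin-binding protein of adherens junctions and of focal adhesions, the contacts of cells with matrix. It was 8.73, 9.07 and 9.12 log2 on the CTNNB1 siRNA arrays and 9.78, 8.68 and 8.80 log2 on the control arrays. Control replicate 1 alone was high, 0.70 above its group's mean, a deviation larger than that of 99.2% of clusters on that array. The sign of the VCL difference depended on single arrays: -0.11 (SE 0.29, 95% interval -0.78 to 0.56, adjusted p = 0.942, limma) with all arrays, 0.24 without control replicate 1 and 0.011 without CTNNB1 siRNA replicate 1. ZYX, the gene of zyxin, another actin-associated protein of these contacts, was chosen after its values were seen. It too was highest on control replicate 1, at 9.64, 10.08 and 10.35 log2 on the CTNNB1 siRNA arrays and 11.22, 10.19 and 10.11 log2 on the control arrays. Further vinculin partners at focal adhesions, chosen in the same way, went either way on that array. PARVA had its highest value there (8.83 log2), whereas ITGB1 (8.66 log2) and PTK2 (8.52 log2) had their lowest.

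CTNNA2 encodes alpha-N-catenin, the form known from neurons. It was 3.45, 3.09 and 3.47 log2 on the CTNNB1 siRNA arrays and 3.25, 4.15 and 2.90 log2 on the control arrays. Its cluster is among the dimmest 40%, those with a mean up to 5.36 log2, where RMA compresses differences towards 0. The CTNNB1 siRNA arrays lay inside the control range, and the difference of -0.10 (SE 0.30) had a 95% interval of -0.80 to 0.61, the widest of the 9 genes. Without control replicate 2 the difference was 0.26.

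CDH1 encodes E-cadherin, the main cadherin of epithelia. Its transcript was 6.40, 6.95 and 7.22 log2 on the CTNNB1 siRNA arrays, against 6.72, 6.80 and 6.999 log2 on the control arrays. The CTNNB1 siRNA group held both the lowest and the highest of the 6 values, and its SD was 0.42, against 0.14 in the control group. The difference was 0.016 (SE 0.22, 95% interval -0.49 to 0.52, adjusted p = 0.990, limma), an interval of 71.2% to 144% of control. It was 0.25 without CTNNB1 siRNA replicate 1 and -0.16 without CTNNB1 siRNA replicate 3.

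CDH17 encodes LI-cadherin, an adhesion molecule of the intestinal epithelium that lacks the catenin-binding tail of classical cadherins and is often present in gastric cancers with intestinal features. It was 9.92, 10.52 and 10.57 log2 on the CTNNB1 siRNA arrays and 10.15, 10.44 and 10.50 log2 on the control arrays. As with CDH1, replicate 1 was the lowest array of each group and replicate 3 the highest. The difference of -0.023 (SE 0.21, 95% interval -0.50 to 0.45, adjusted p = 0.983, limma) was 0.18 without CTNNB1 siRNA replicate 1.

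CDH3 encodes P-cadherin, a classical cadherin of basal and placental epithelia, and CDH3 and CDH1 are next to each other on the genome in RefSeq's GRCh38.p14 annotation. CDH3 was 4.60, 4.59 and 4.71 log2 on the CTNNB1 siRNA arrays and 4.34, 4.53 and 4.55 log2 on the control arrays. Every CTNNB1 siRNA array lay above every control array, by a margin smaller than the SD of either group at its nearest point. Groups without overlap occurred for 2 of the 9 genes and for 13.6% of all tested clusters: CDH3 was higher (6.81% of clusters) and CTNNB1 lower (6.8%). The difference of 0.16 (SE 0.13, 95% interval -0.15 to 0.47) did not pass (adjusted p = 0.825, limma), and the cluster is in the dimmest 40%.

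**Figure D2:**
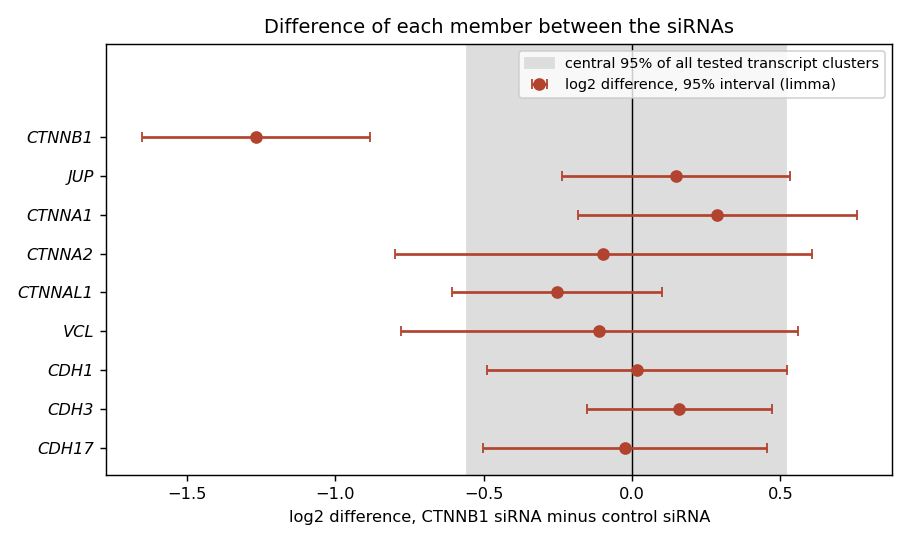
Log2 difference (CTNNB1 siRNA minus control siRNA, horizontal axis) of the 9 genes with limma's 95% interval, n = 3 arrays per group; the grey band spans the central 95% of the 19460 tested clusters, -0.56 to 0.52. The interval of CTNNB1 lies wholly to the left of the band, and the other 8 intervals all include 0.

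For the 6 other genes that were not dim, the lower ends of the intervals lay between 58.2% of control (VCL) and 88.0% (CTNNA1), each above the 54.2% at the upper end of the CTNNB1 interval. Their upper ends lay between 107% (CTNNAL1) and 169% (CTNNA1). Smaller differences within these bounds were not detectable with 3 arrays a group. The intervals of CTNNA2 and CDH3 set no such bound, because RMA compresses the differences of dim clusters.

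Whether CTNNB1 differed from each partner was compared directly, as log2 CTNNB1 minus log2 partner on each array, which removes whatever both transcripts share on that array. Against JUP, this quantity was -1.54, -1.19 and -1.52 on CTNNB1 siRNA replicates 1 to 3, relative to the control mean, while the control arrays lay between -0.15 and 0.13. The log2 difference of CTNNB1 minus that of the partner was -1.41 for JUP, -1.28 for CDH1, -1.55 for CTNNA1 and -1.01 for CTNNAL1. The groups did not overlap for 7 of the 8 partners. For each of these 7 the 2-sided exact permutation p was 0.1, the smallest that 3 arrays against 3 can give, and 0.114 after Benjamini-Hochberg adjustment over the 8 comparisons. The exception was CTNNA2 (exact p = 0.2), whose dim signal varied most among the controls. All 8 comparisons use the same CTNNB1 values, so they are not 8 separate results. The CTNNB1 groups were already apart on their own, and the share over all genes was not computed. The 7 of 8 is therefore not a result about the partners.

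**Figure D3:**
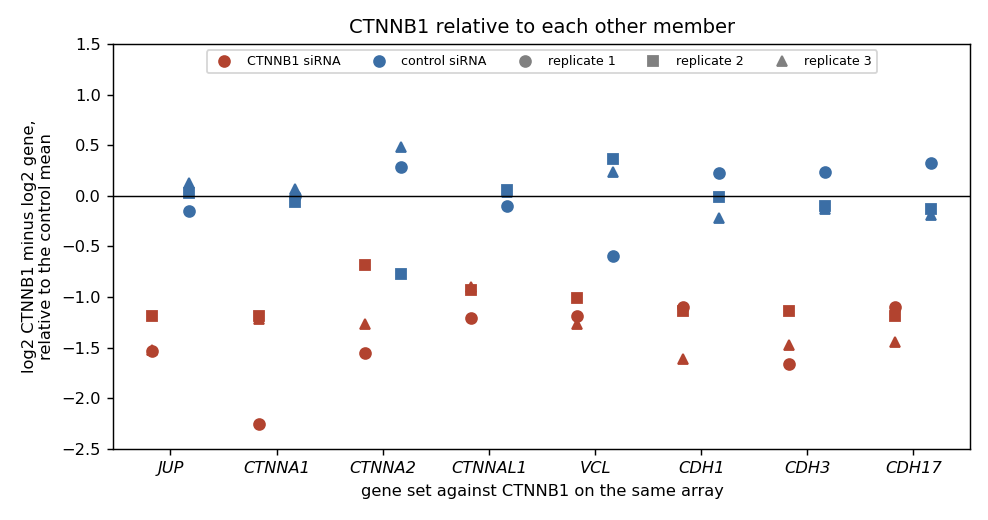
Log2 CTNNB1 minus log2 of each other gene on the same array (vertical axis, relative to the mean of the 3 control arrays), with CTNNB1 siRNA arrays in red on the left and control siRNA arrays in blue on the right of each gene. The red points lie below all blue points for every gene except CTNNA2, where they overlap.

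With 1 array left out at a time, CTNNB1 stayed between -1.39 and -1.13. JUP, CTNNA1 and CDH3 kept a positive sign and CTNNAL1 a negative sign in all 6 of these fits. CDH1, CDH17, VCL and CTNNA2 each changed sign in at least 2 of the 6. A kept sign does not give a direction either, because these fits share most of their arrays. With all arrays, limma's interval reached both below and above control for every catenin and cadherin gene other than CTNNB1. No direction can therefore be given for any of those genes.

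**Figure D4:**
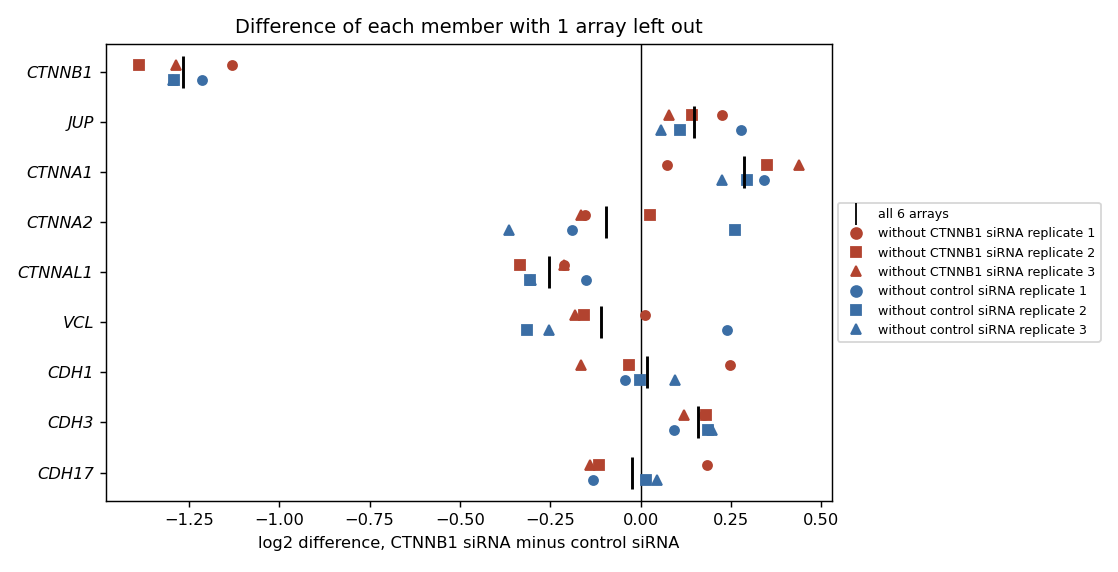
Log2 difference (CTNNB1 siRNA minus control siRNA) of each gene with all 6 arrays (black bar) and with 1 array left out (coloured symbols: red without a CTNNB1 siRNA array, blue without a control array). CTNNB1 stays between -1.39 and -1.13, and symbols of CDH1, CDH17, VCL and CTNNA2 fall on both sides of 0.

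Likeness of pattern was measured as the root mean square difference, over the 6 arrays, of log2 values centred on each gene's own mean, among 9257 genes at or above the median level. The genes most like CTNNB1 were ETS2 (0.24), ZNF37A (0.28), GPAM (0.29), DTL (0.30) and RTKN2 (0.31). Being selected for that likeness, all 5 were lower in CTNNB1 siRNA cells, by 0.71 to 0.84 log2, and none passed in limma. ETS2, a transcription factor gene, was 8.94, 9.54 and 9.38 log2 on the CTNNB1 siRNA arrays and 10.32, 9.94 and 10.00 log2 on the control arrays. Of the catenin and cadherin genes compared, CTNNAL1 was the closest, at rank 1376 (0.52).

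For CDH1 the nearest genes were UNCX (0.057), FNIP2 (0.068) and PIP5K1C (0.070). CDH17 ranked 23 of 9257 by likeness to CDH1 (0.092), the nearest of the catenin and cadherin genes compared with it. Both had their lowest value on CTNNB1 siRNA replicate 1 and their highest on CTNNB1 siRNA replicate 3. For JUP the nearest were GATA5 (0.046), ZNF12 (0.057) and RPS6KA1 (0.058). Of the catenin and cadherin genes compared with JUP, which leave out the dim CTNNA2 and CDH3, CTNNAL1 was the nearest, at rank 2485.

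Of 39 measured partners and regulators of the adherens junction, 0 passed in limma. At an unadjusted p under 0.05, 5 were higher and 0 lower (all clusters: 3.04% higher, 2.6% lower), and the median difference was 0.052 log2, against -0.0052 over all genes. LIMA1, whose product EPLIN binds alpha-catenin and actin, was 10.27, 10.25 and 10.07 log2 on the CTNNB1 siRNA arrays and 9.38, 9.64 and 9.41 log2 on the control arrays, a difference of 0.72 (SE 0.14, adjusted p = 0.747, limma). LMO7, an afadin- and actinin-binding protein of the junction, was 8.57, 8.38 and 8.34 log2 on the CTNNB1 siRNA arrays and 7.78, 7.91 and 7.83 log2 on the control arrays, a difference of 0.59 (SE 0.14). The nectins are a second adhesion system beside the cadherins, tied to actin by afadin. NECTIN2 was 9.59, 9.12 and 9.19 log2 on the CTNNB1 siRNA arrays and 8.89, 8.87 and 8.83 log2 on the control arrays. AFDN, the afadin gene, was 7.83, 7.74 and 7.81 log2 on the CTNNB1 siRNA arrays and 7.33, 7.40 and 7.65 log2 on the control arrays. NECTIN4, chosen after its values were seen, differed by 0.61 (SE 0.25). None of these 5 genes passed (adjusted p = 0.816 each in limma, apart from LIMA1). The remaining nectin genes, also chosen after their values were seen, went either way: NECTIN1 differed by 0.30 (SE 0.15) and NECTIN3 by -0.26 (SE 0.18). Of the 39 genes, 21 had a difference above 0 and 18 below it. Over the whole list the groups did not overlap for 8 of 39 genes that were higher and 1 that was lower, against 6.81% and 6.8% of all clusters.

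Desmosomes are the junctions in which JUP links cadherins to keratin filaments. Of 14 measured desmosome genes 0 passed in limma, 0 had an unadjusted p under 0.05 (5.64% of all clusters), and the median was -0.075 log2. The groups did not overlap for 2 of the 14, DSG4 and PPL, which were higher (all clusters: 6.81% higher, 6.8% lower). DSP, the desmoplakin gene, was 10.07, 10.29 and 10.24 log2 on the CTNNB1 siRNA arrays and 10.27, 10.18 and 10.12 log2 on the control arrays. The plakophilin gene PKP2 differed by -0.019 (SE 0.13) and PKP3 by -0.12 (SE 0.15), and the desmosomal cadherin genes DSG2 by 0.032 (SE 0.23) and DSC2 by -0.24 (SE 0.22). PPL, the periplakin gene, had the smallest p of the list, with a difference of 0.34 (SE 0.16, adjusted p = 0.816, limma).

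The other cadherin genes were mostly dim: 14 of 18 measured lay in the dimmest 40%. In limma 0 passed, 0 had an unadjusted p under 0.05 (5.64% of all clusters), and the median was -0.040 log2. CDH2, the gene of N-cadherin, which is typical of mesenchymal and neural cells, was 3.67, 3.90 and 4.08 log2 on the CTNNB1 siRNA arrays and 4.10, 3.997 and 4.16 log2 on the control arrays. The groups overlapped for CDH2, as they did for CDH1, and CDH2 was dim. CDH16, also dim, had the smallest p of the list, with a difference of 0.20 (SE 0.13). Its levels were 4.85, 4.88 and 5.00 log2 on the CTNNB1 siRNA arrays and 4.70, 4.70 and 4.71 log2 on the control arrays. Only CDH16, 1 of the 18, had groups that did not overlap (all clusters: 6.81% higher, 6.8% lower). CDH7, dim as well, differed by -0.30 (SE 0.24).

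Among 21 measured vinculin partners at focal adhesions 0 passed in limma, with a median of -0.086 log2. At an unadjusted p under 0.05, 0 were higher and 1 was lower (all clusters: 3.04% higher, 2.6% lower). That gene was FERMT1, the gene of kindlin-1, which activates integrins. It was 7.53, 7.58 and 7.97 log2 on the CTNNB1 siRNA arrays and 8.42, 7.998 and 8.09 log2 on the control arrays, a difference of -0.48 (SE 0.18). ITGB1, the integrin beta-1 gene, differed by 0.41 (SE 0.22) and VASP, an actin filament elongation factor gene, by 0.37 (SE 0.17), and the groups overlapped for both.

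Of 24 measured regulators of cadherin expression and turnover, 13 had a difference above 0 and 11 below it. In limma 0 passed, 2 were higher and 2 lower at an unadjusted p under 0.05 (all clusters: 3.04% higher, 2.6% lower), and the median was 0.048 log2. CDX2, an intestinal transcription factor known to activate CDH17, was 8.32, 7.89 and 8.09 log2 on the CTNNB1 siRNA arrays and 7.94, 7.55 and 7.40 log2 on the control arrays, a difference of 0.47 (SE 0.19), while CDH17 differed by -0.023. GRHL1, a transcription factor of epithelia, differed by 0.53 (SE 0.21). TCF4, here the E-box factor E2-2 and not the Wnt effector TCF7L2, differed by -0.39 (SE 0.15) in the dimmest 40%. ZEB2, a repressor of CDH1 chosen after its values were seen, differed by -0.32 (SE 0.13) and was as dim. Further genes of the list, chosen in the same way, went either way. SNAI1 differed by 0.33 (SE 0.17), ZEB1 by 0.22 (SE 0.15), SNAI2 by -0.16 (SE 0.18) and TWIST1 by -0.0014 (SE 0.14). Of these, ZEB1 and SNAI2 were dim. CBLL1, the gene of Hakai, a ubiquitin ligase for E-cadherin, was likewise chosen after its values were seen. It was 6.91, 9.37 and 9.20 log2 on the CTNNB1 siRNA arrays and 9.45, 9.37 and 9.50 log2 on the control arrays, with the low value on replicate 1 alone, and its difference was -0.95 (SE 0.58).

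**Figure D5:**
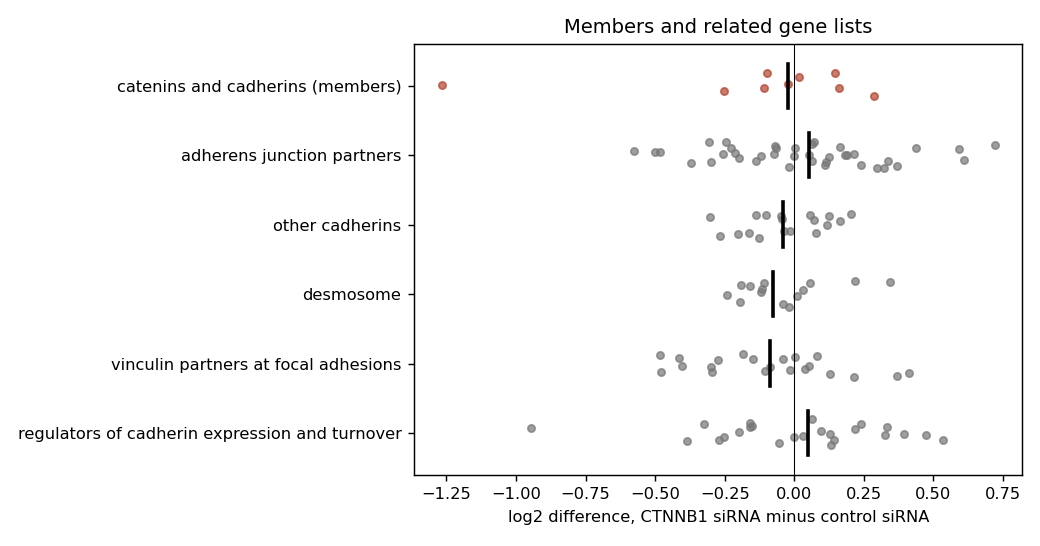
Log2 difference (CTNNB1 siRNA minus control siRNA, horizontal axis) of each gene in the catenin and cadherin set (red) and in 5 related lists (grey), with the median of each as a black bar; points are spread vertically for legibility. Medians lie between -0.086 and 0.052, and the farthest points to the left are CTNNB1 at -1.27 and CBLL1 at -0.95.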

How the data were processed

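Per the submitters' processing notes, the authors ran RMA with Affymetrix Expression Console 1.1, which gives the deposited log2 value of each transcript cluster. RMA corrects background, gives all arrays 1 intensity distribution and summarises probes, so a shift shared by all transcripts cannot be seen and dim clusters are compressed. The log2 scale was read from the values. The genome build is not given in the sources used here, and no coordinate is printed. At most 43 values were identical between any pair of arrays, so all 6 were kept as separate samples.

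Of 33297 clusters, 19460 were paired with exactly 1 symbol (updated through RefSeq gene identifiers for 19429) and tested. The other 1754 had several symbols and 12083 none listed. Where a gene had several clusters, the one with the highest mean stood for it. Groups were compared with limma 3.58.1 (lmFit, eBayes) in R 4.3.3, 2-sided, with Benjamini-Hochberg adjustment over all tested clusters, a threshold of 0.05, and no filter, weights or block. Exact permutation tests used scipy 1.17.1. The fit was also run on simulated data with shifts larger than the CTNNB1 difference, which does not bear on smaller differences. The precision is limited by the 3 arrays per group.

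The members and lists were chosen with earlier results of these data known. The lists were partners of the adherens junction, other cadherins, the desmosome, vinculin partners, regulators of cadherins, and epithelial, fibroblast, endothelial and immune markers. Named are the 9 measured members and DSP, DSG2, DSC2, PKP2, PKP3, AFDN and NECTIN2. From each list other than the cell type markers, the genes past the threshold are named (where a list had none, up to 3 of smallest p). Of the cell type markers, the epithelial genes, the measured immune genes and COL1A1 are named. The genes nearest in pattern to CTNNB1 (5), CDH1 (3) and JUP (3) are named too. Others are said to be chosen after their values were seen. Alternatives were each array left out, a replicate block, array weights, the dimmest 40% left out, a trended robust prior, median centring and quantile normalisation of the tested clusters.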

Additional observations from a re-analysis of the deposited data

How the results depend on the processing

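CTNNB1 kept its sign under every alternative run, between -1.39 and -1.13 with 1 array left out (limma adjusted p between 0.0520 and 0.937), and passed the threshold with array weights (-1.12), where 1 of the 9 catenin and cadherin genes was called. With 1 array left out, CDH1 ranged from -0.16 to 0.25, CDH17 from -0.14 to 0.18, VCL from -0.31 to 0.24 and CTNNA2 from -0.36 to 0.26, each turning sign. With array weights VCL was 0.12 and CDH17 0.091. JUP, CTNNA1, CTNNAL1 and CDH3 kept their signs under all alternatives in which they were tested. CDH3 and CTNNA2 have no value with the dimmest 40% left out, and no gene of the 9 had a further cluster to try. The causes were not tested.

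The count of clusters called was 1 in limma over all arrays, 0 to 10 with 1 array left out (10 without CTNNB1 siRNA replicate 1), 13 with array weights, and 0 with the dimmest 40% left out (670 at an unadjusted p under 0.05) and with the replicate block (1123). Same-numbered arrays deviated together weakly (correlations of 0.092, 0.12 and 0.098), and each array correlated best with its own number. The remaining pairs lay between -0.10 and 0.028. Whether the numbers pair the arrays is not stated, so the main fit left them unpaired and the replicate block was run as the paired alternative. With the replicate block CTNNB1 was -1.27 (adjusted p = 0.646) and 0 of the 9 were called. CTNNB1 minus a partner kept its sign in all fits with 1 array left out. Of 80 recomputed list medians, 75 moved by less than the spread between arrays. The median of the epithelial markers was 0.24 without CTNNB1 siRNA replicate 1, against 0.50 with all arrays. In the settings recomputed for the lists, 0 list genes were called. The lists were not recomputed with array weights, the replicate block or the trended robust prior.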
